A study of Mus musculus with 39 samples.

Results

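Housing in an enriched environment (EE) was compared with standard cages (SC) in the mouse hippocampus at 2 ages, and the gene groups described here are those whose EE effect had opposite signs at 5 and at 24 months. RNA sequencing libraries of 33 of the 39 mice of the series entered the comparison. They were chosen by name: every library whose name carries a mouse number was used, and the 6 libraries of standard-housed 24-month mice whose names carry the letters OE were not. All 33 were male C57BL/6 mice, with 1 hippocampus library each. The groups were 9 standard-housed (24mSC) and 5 enriched (24mEE) mice of 24 months, and 10 standard-housed (5mSC) and 9 enriched (5mEE) mice of 5 months, with EE lasting 2 months in 24mEE. No source used here gives the length of the enrichment for 5mEE. Mice are named by age in months and number, as in the labels.

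An enriched environment gives mice a larger cage with company, objects to explore and running wheels, and it is used to raise sensory, motor and cognitive stimulation. Hippocampal tissue holds microglia and astrocytes beside its neurons, and these cells answer type I interferons through receptors and transcription factors that switch on a set of antiviral genes and part of the antigen presentation machinery. Chaperones of the endoplasmic reticulum are controlled by another program, the unfolded protein response, which follows the load of proteins to be folded.

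Each library held between 15002708 and 30147869 counts of reads assigned to genes, and the ranges of the 4 groups overlapped. Sequencing batches are not in the labels. Mouse numbers run from 5_106 to 5_115 in 5mSC and from 5_79 to 5_87 in 5mEE, so that whatever the numbering stands for cannot be told apart from housing at 5 months. Markers of other tissue set 2 libraries of the 5mEE group apart, those of mice 5_81 and 5_85, in which genes of the choroid plexus, the tissue in the ventricles that secretes cerebrospinal fluid, were far above every other library. The interferon, MHC class I, chaperone, complement and reactive astrocyte groups are therefore given with and without them. In whole tissue, fewer cells of a type and less RNA per cell cannot be told apart.

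The EE effect is written as the log2 fold change of EE over SC at one age, and the interaction is the EE effect at 24 months minus the EE effect at 5 months. A negative interaction means that EE stood lower, relative to SC, in the old mice than in the young. Of the 17151 genes tested with edgeR's quasi-likelihood test, 0 (0%) had an interaction with a Benjamini-Hochberg adjusted p below 0.05, and the smallest adjusted p was 0.89. At unadjusted p below 0.05 there were 734 genes (4.28%), and DESeq2 also called 0 genes, with 714 at unadjusted p below 0.05. The EE effect at 24 months gave 0 called genes (0%) and 704 at unadjusted p below 0.05 (4.1%), against 0 called and 691 in DESeq2. At 5 months 5 genes (0.0292%) were called, and 1360 genes were at unadjusted p below 0.05 (7.93%), and DESeq2 called 33. All that follows on the interaction is therefore a description of values: no single gene was shown to respond differently at the 2 ages. The median standard error of an interaction was 0.131 on the log2 scale, which sets the size of difference these 33 libraries could resolve.

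Among all genes tested, 3857 (22.5%) were lower under EE at 24 months and higher under EE at 5 months, and 3695 (21.5%) had the other orientation. Across genes the EE effects at the 2 ages, which share no library, had a Pearson r of 0.0239, and genes are not independent replicates. Of the 734 genes at unadjusted p below 0.05 in the interaction, 362 were lower at 24 months and higher at 5 months, 328 were the reverse and 44 had the same sign at both ages. The gene groups were read against these shares. Of 40 lists, 10 had a median EE effect below 0 at 24 months and above 0 at 5 months, with a size of at least 0.01 on both sides. Among them were the interferon response, MHC class I, chaperones, reactive astrocytes, complement and the hub genes named by the study. The others were markers of regions or tissue: CA1, thalamus and habenula, striatum and septum, and meninges and fibroblasts. The reverse was found for 2 of 40 lists, the cytosolic ribosomal proteins and the markers of the dentate gyrus.

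**Figure D1:**
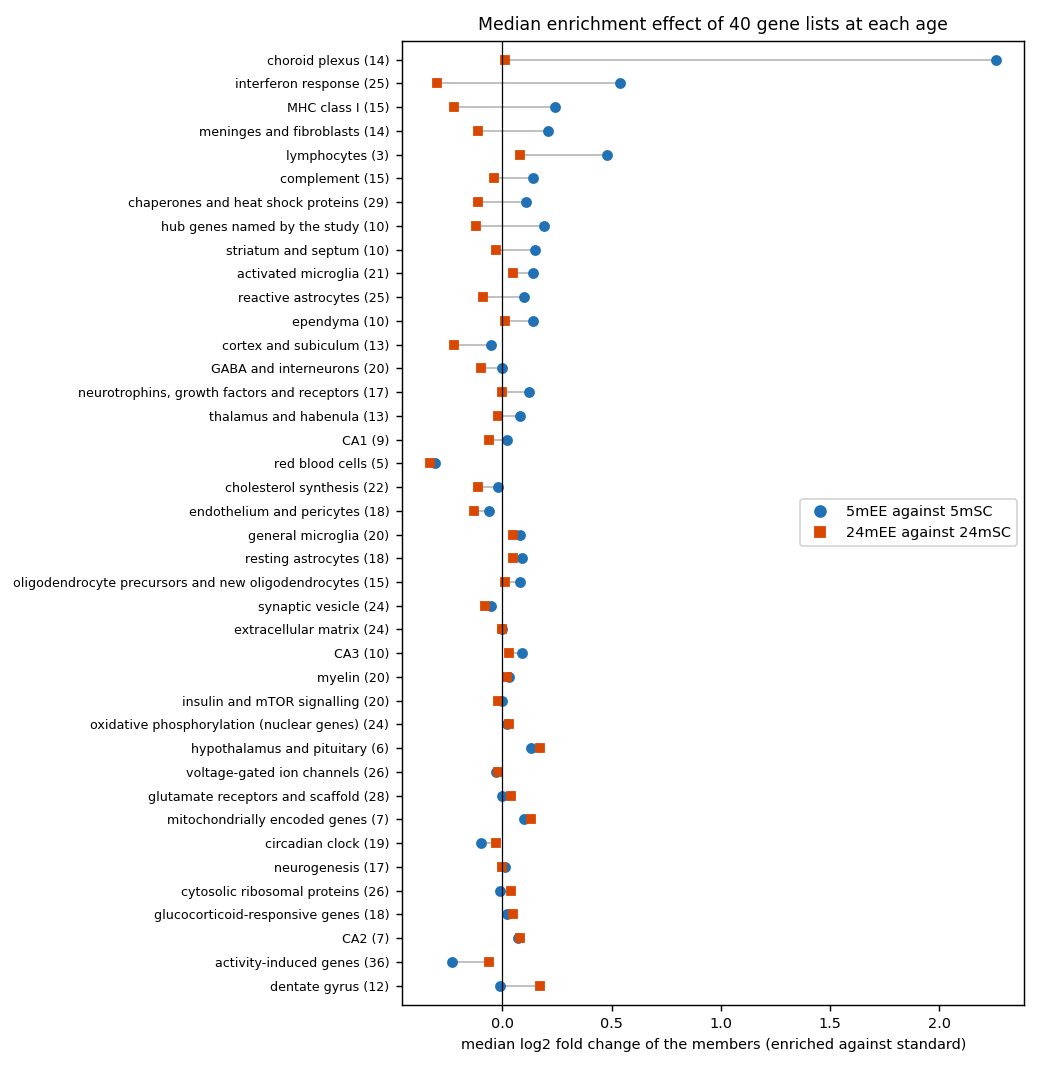
Median log2 fold change of EE over SC of 40 gene lists, as circles for 5 months (5mEE against 5mSC) and squares for 24 months (24mEE against 24mSC), with the number of members tested in parentheses and lists sorted by the median interaction. The interferon response lies at −0.30 at 24 months and 0.54 at 5 months, and the choroid plexus at 0.01 and 2.26.

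Among the lists with medians lower at 24 months and higher at 5 months, the interferon response had the largest medians at both ages. All 25 genes of the list were tested. Of these, 22 (88%) were lower under EE at 24 months and higher at 5 months, against 22.5% of all genes, and 0 had the reverse orientation. The median EE effect was −0.30 at 24 months and 0.54 at 5 months, and the median interaction was −0.83, against medians of 0.01, 0.01 and 0 over all genes. The interaction lay below 0 for 25 of 25 members and was at unadjusted p below 0.05 with that sign for 18 of 25, against 2.27% of all genes. Taken singly, 19 members had an unadjusted p below 0.05 at 5 months and 0 had one at 24 months, where 24mEE held only 5 libraries. These counts depended on the libraries fitted together. With each age fitted alone they were 15 of 24 at 5 months and 6 of 25 at 24 months. Without mice 5_79, 5_81 and 5_87, picked by their high interferon level, they were 2 at 5 months and 8 at 24 months. None of the 25 was called at either age.

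Several of these genes carry the interferon-stimulated response element (ISRE) next to their start, the DNA motif through which interferon switches genes on. It was searched as GAAANNGAAA on both strands in a window around each RefSeq start (GRCm38.p6). This window was longer than the 200 bases before the start that are printed below. It also took in bases after the start. It was found in 13 of 20 interferon response genes with a promoter in the table (65%), in 3.99% of 27025 genes and in 3.44% of 32851 promoters. The promoters of 3 members are shown since their transcripts are followed below, written 5′ to 3′ along the gene, with the motif in capitals on whichever strand it was found and overlapping matches joined. Bst2 lies at chr8:71537473-71537672 (minus strand), Isg15 at chr4:156200819-156201018 (minus strand) and Ifit1 at chr19:34640689-34640888 (plus strand). A match in letters is no evidence of binding.
Bst2: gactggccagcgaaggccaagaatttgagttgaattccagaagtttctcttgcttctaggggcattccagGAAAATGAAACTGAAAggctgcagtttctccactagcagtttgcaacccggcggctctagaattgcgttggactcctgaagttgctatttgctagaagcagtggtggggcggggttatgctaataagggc
Isg15: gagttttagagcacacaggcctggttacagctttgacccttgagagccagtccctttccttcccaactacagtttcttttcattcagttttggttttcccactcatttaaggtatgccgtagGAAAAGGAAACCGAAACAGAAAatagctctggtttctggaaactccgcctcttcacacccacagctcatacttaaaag
Ifit1: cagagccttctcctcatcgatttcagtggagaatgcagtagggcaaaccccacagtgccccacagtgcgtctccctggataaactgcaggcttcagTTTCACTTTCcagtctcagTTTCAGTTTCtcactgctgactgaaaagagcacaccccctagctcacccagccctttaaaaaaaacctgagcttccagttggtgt

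Levels of single genes are given as CPM, in which counts are put on the same library total, and can be compared between libraries but not between genes of different length. Bst2 encodes tetherin, which holds budding viruses at the cell membrane (chr8:71534255-71537456, GRCm38). In 5mSC its level ran from 2.58 to 5.33 CPM with a median of 3.24, and in 5mEE from 3.16 to 14.7 with a median of 4.85. In 24mSC it ran from 3.34 to 7.07 with a median of 5.16, and the 24mEE mice had 3.75, 5.67, 3.18, 4.67 and 4.46 CPM. At 5 months 4 enriched mice stood above every standard-housed mouse and the other 5 lay among them, whereas at 24 months 4 of 5 enriched mice were below the median of their controls and the groups overlapped. The EE effect was 0.97 ± 0.228 (SE) at 5 months and −0.31 ± 0.283 at 24 months. The interaction was −1.28 ± 0.365 (edgeR, unadjusted p = 0.0012, adjusted p = 1).

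Irf7, the transcription factor that amplifies interferon production (chr7:141262706-141266481), had 1.5 to 3.48 CPM in 5mSC with a median of 2.55, and 1.72 to 9.71 in 5mEE with a median of 3.32. At 24 months the range was 2.26 to 5.37 in 24mSC with a median of 3.78, against 3.39, 2.75, 2.10, 1.54 and 3.62 in 24mEE. Mice 5_79, 5_81 and 5_87 were the high ones of 5mEE, and all 5 of 24mEE lay below the 24mSC median. The EE effect was 0.91 ± 0.264 at 5 months and −0.49 ± 0.331 at 24 months, with an interaction of −1.39 ± 0.425 (edgeR, unadjusted p = 0.0024, adjusted p = 1).

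Ifitm3, a membrane protein that blocks the entry of viruses (chr7:141009586-141010770), had 5.00 to 7.25 CPM in 5mSC with a median of 6.29, and 5.44 to 14.9 in 5mEE with a median of 6.43. The 24mSC range was 7.07 to 11 with a median of 10.1, and the 24mEE mice had 8.96, 7.71, 5.65, 6.71 and 8.28 CPM. Here the medians at 5 months were close, and the higher mean of 5mEE rested on the 4 mice above all controls. At 24 months 2 enriched mice were below every control. The EE effects were 0.54 ± 0.163 and −0.37 ± 0.200 in the same order, and the interaction was −0.90 ± 0.258 (edgeR, unadjusted p = 0.0013, adjusted p = 1).

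The antiviral effectors followed the same layout. Oasl2, a relative of the RNA-sensing oligoadenylate synthetases, reached 18.1 CPM in 5mEE against at most 4.76 in 5mSC, and its interaction was −1.39. Ifit1, which binds foreign RNA caps, reached 10.6 CPM in 5mEE against at most 3.23 in 5mSC, with an interaction of −1.49. Isg15, a ubiquitin-like modifier, reached 5.64 CPM against at most 2.38, with an interaction of −1.06. For each of these 3 genes the highest 5mEE libraries were those of mice 5_79, 5_81 and 5_87. Ifih1, the sensor MDA5 of double-stranded RNA, had a smaller interaction of −0.74 but an EE effect of similar size at both ages, −0.36 ± 0.183 at 24 months and 0.38 ± 0.148 at 5 months. The 3 members outside the pattern were Ifit3b (0.10 at 24 months, 0.85 at 5 months), Ddx58 (0.04 and 0.31) and Stat2 (−0.14 and −0.02). Ifit3 and Ifit3b are near-identical copies, and how reads were divided between them is uncertain.

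**Figure D2:**
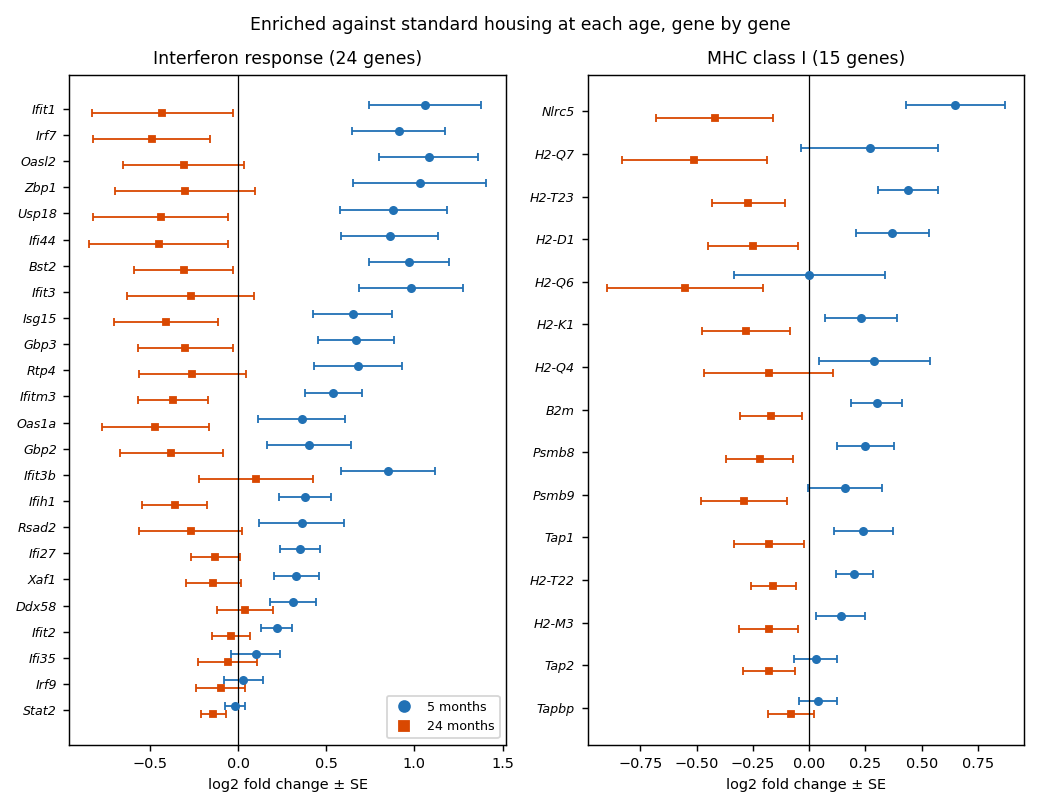
Log2 fold change of EE over SC with its standard error for 24 of the 25 interferon response genes and all 15 MHC class I genes, circles for 5 months and squares for 24 months. Except for Ifit3b, Ddx58 and Stat2 on the left and H2-Q6 on the right, the square lies below 0 and the circle above 0.

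Averaged over the 25 members of the interferon response list, the level per library (mean log2 CPM) was 1.82 ± 0.17 (SD) in 5mSC, 2.25 ± 0.64 in 5mEE, 2.21 ± 0.26 in 24mSC and 1.97 ± 0.22 in 24mEE. The 5mEE group was thus the widest by far. Its 9 mice had 2.84 (mouse 5_79), 1.71 (5_80), 2.99 (5_81), 1.79 (5_82), 2.02 (5_83), 1.71 (5_84), 2.33 (5_85), 1.58 (5_86) and 3.27 (5_87), against 1.56 to 2.14 in 5mSC. Mice 5_79, 5_81, 5_85 and 5_87 stood above every 5mSC mouse, and the other 5 fell within the 5mSC range. The difference at 5 months was therefore held by some of the enriched mice and not by all. In mouse 5_87 25 of 25 members (100%) exceeded every 5mSC library, in mouse 5_81 21 (84%), in mouse 5_79 20 (80%) and in mouse 5_85 12 (48%), while in mice 5_80, 5_82, 5_84 and 5_86 there were 0. Over all genes this share ran from 5.96% to 12.2% in the 9 mice.

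At 24 months the enriched mice had interferon response levels of 2.27, 1.94, 1.81, 1.74 and 2.11, and the controls 1.87 to 2.59. Mice 24_1072 and 24_1074 were below every control, the other 3 inside the control range. In these 2 libraries 12 (48%) and 13 (52%) of the 25 members were below every 24mSC library, against 9.23% and 9.67% of all genes. The shares were 8% in mouse 24_1070, 24% in 24_1071 and 8% in 24_1076, against 12.5%, 17.2% and 10.2% of all genes. 

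**Figure D3:**
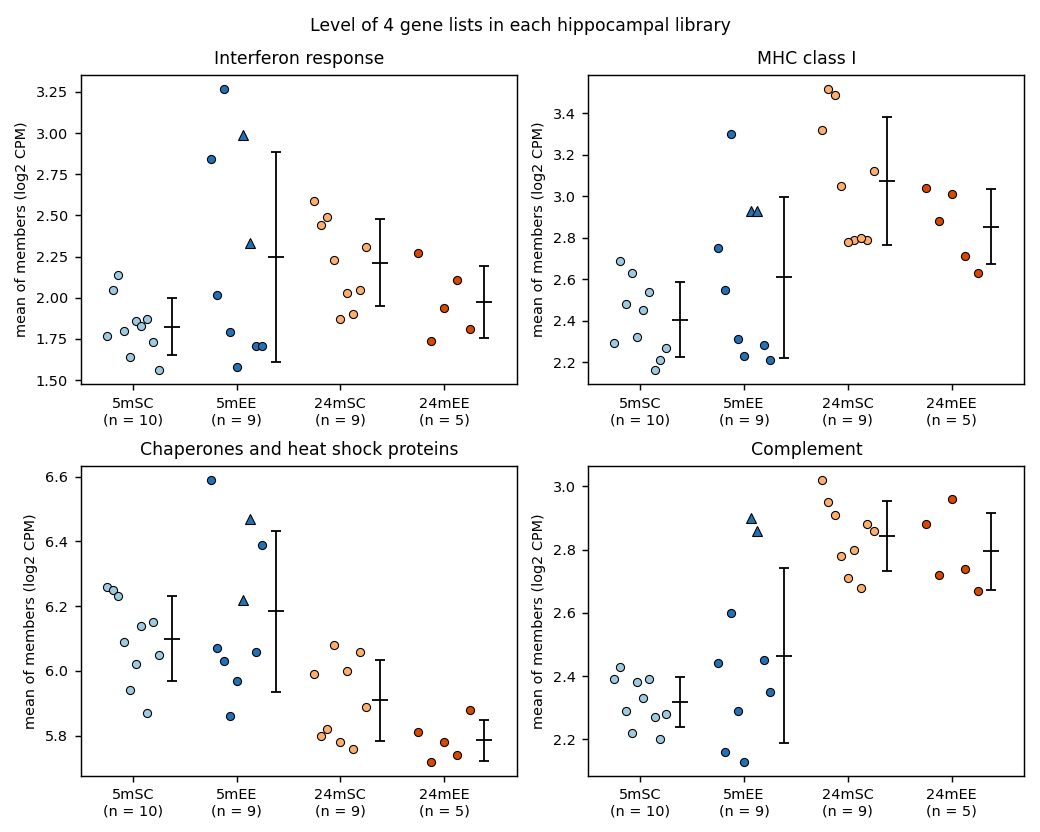
Level of 4 gene lists in each library, as the mean log2 CPM of the members, with the mean ± SD beside the points of each group and triangles for 5mEE mice 5_81 and 5_85. The interferon response of 5mEE runs from 1.58 to 3.27, and that of 5mSC from 1.56 to 2.14.

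Leaving out mice 5_81 and 5_85, an alternative chosen after the data were seen, left a median interaction of −0.69 with 15 members at unadjusted p below 0.05 and 21 of opposite sign. Leaving out the 3 mice with the highest level (79, 81 and 87), which were picked by this very level, took the median interaction to −0.27 and the EE effect at 5 months to 0.02, with 14 members of opposite sign. Leaving out any 1 of the 33 libraries kept the median interaction between −0.95 and −0.69. The interferon response median at 24 months, −0.30, was −0.19 without mouse 24_1074 and −0.17 with all 39 libraries. With the 24-month controls restricted to mice numbered 24_1070 and above, the number range of the 24mEE mice, it was −0.16. Here and below, this restriction left only mice 24_1073, 24_1075 and 24_1077 as 24-month controls.

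MHC class I molecules display peptides from inside the cell to CD8+ T cells, and their assembly needs a light chain, peptide transporters and the immunoproteasome. All 15 genes of this list were tested, and 14 (93.3%) were lower under EE at 24 months and higher at 5 months, against 22.5% of all genes. The median EE effect was −0.22 at 24 months and 0.24 at 5 months, and the interaction lay below 0 for all 15, with a median of −0.47. It was at unadjusted p below 0.05 for 7 of 15, against 2.27% of all genes. The exception was H2-Q6, with an EE effect of 0.00 at 5 months. The genes of the H2-Q and H2-T families are similar in sequence, so that reads can be shared between them and their single values are uncertain.

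The ISRE search found the motif in 3 of 13 MHC class I genes with a promoter searched (23.1%), against 3.99% of all genes. The promoters of 2 members described next are printed in the same way, with the match in capitals. H2-T23 lies at chr17:36032702-36032901 (minus strand) and B2m at chr2:122147487-122147686 (plus strand).
H2-T23: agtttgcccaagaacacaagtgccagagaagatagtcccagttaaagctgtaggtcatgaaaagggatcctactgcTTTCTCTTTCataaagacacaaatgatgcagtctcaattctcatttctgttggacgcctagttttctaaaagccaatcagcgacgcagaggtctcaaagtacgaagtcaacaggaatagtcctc
B2m: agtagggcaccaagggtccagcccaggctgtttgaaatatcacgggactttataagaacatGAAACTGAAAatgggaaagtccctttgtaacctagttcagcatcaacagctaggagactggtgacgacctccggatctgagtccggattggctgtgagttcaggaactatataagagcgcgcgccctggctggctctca

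H2-T23 encodes Qa-1, a non-classical class I molecule recognised by natural killer cells (chr17:36029773-36032855). Its level was 4.38 to 8.35 CPM in 5mSC with a median of 6.12, and 6.63 to 12.1 in 5mEE with a median of 8.49. In 24mSC it was 6.78 to 12.1 with a median of 8.22, and the 24mEE mice had 8.29, 8.47, 7.27, 8.10 and 6.53 CPM. All 9 enriched young mice were above the 5mSC median and 5 were above every 5mSC mouse, so the difference was not limited to the 4 mice with high interferon genes. The old groups overlapped, with 1 enriched mouse below every control. The EE effect was 0.44 ± 0.133 at 5 months and −0.27 ± 0.162 at 24 months, with an interaction of −0.70 ± 0.210 (edgeR, unadjusted p = 0.0019, adjusted p = 1).

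B2m, the light chain shared by all class I molecules (chr2:122147686-122153083), had 87.2 to 111.3 CPM in 5mSC and 88.7 to 199 in 5mEE, with mice 5_87 and 5_79 highest. In 24mSC it had 113.1 to 176 CPM with a median of 135, against 126, 135, 113.7, 109.9 and 123 in 24mEE. At 24 months 4 of 5 enriched mice were below the control median, and 1 was below every control. The EE effects were 0.30 at 5 months and −0.17 at 24 months, and the interaction was −0.47 ± 0.179 (edgeR, unadjusted p = 0.012, adjusted p = 1).

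Nlrc5, the transactivator of the class I genes, had the most negative interaction of the list, −1.07 ± 0.340 (0.65 at 5 months, −0.42 at 24 months). The classical heavy chains H2-D1 and H2-K1 had interactions of −0.62 ± 0.259 and −0.51 ± 0.251, and the peptide transporter Tap1 had −0.42 ± 0.204. The MHC class I level was 2.4 ± 0.18 in 5mSC, 2.61 ± 0.39 in 5mEE, 3.07 ± 0.31 in 24mSC and 2.85 ± 0.18 in 24mEE. Mice 5_79, 5_81, 5_85 and 5_87 were again the 4 of 5mEE above every 5mSC mouse, at 2.75, 2.93, 2.93 and 3.30. The old enriched mice had 3.04, 3.01, 2.63, 2.88 and 2.71 against 2.78 to 3.52 in their controls, with 2 below all of them. Without mice 5_81 and 5_85 the median interaction was −0.38 and 12 members had the opposite signs, and without mice 5_79, 5_81 and 5_87 it was −0.23, with 7. Mouse 5_87 alone moved the median EE effect at 5 months from 0.24 to 0.10. With all 39 libraries the MHC class I median at 24 months was −0.12 and the median interaction −0.35. With controls numbered 24_1070 and above these were −0.19 and −0.48. In both settings 3 of 15 members had an interaction at unadjusted p below 0.05, and 14 and 13 members had the opposite signs.

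**Figure D4:**
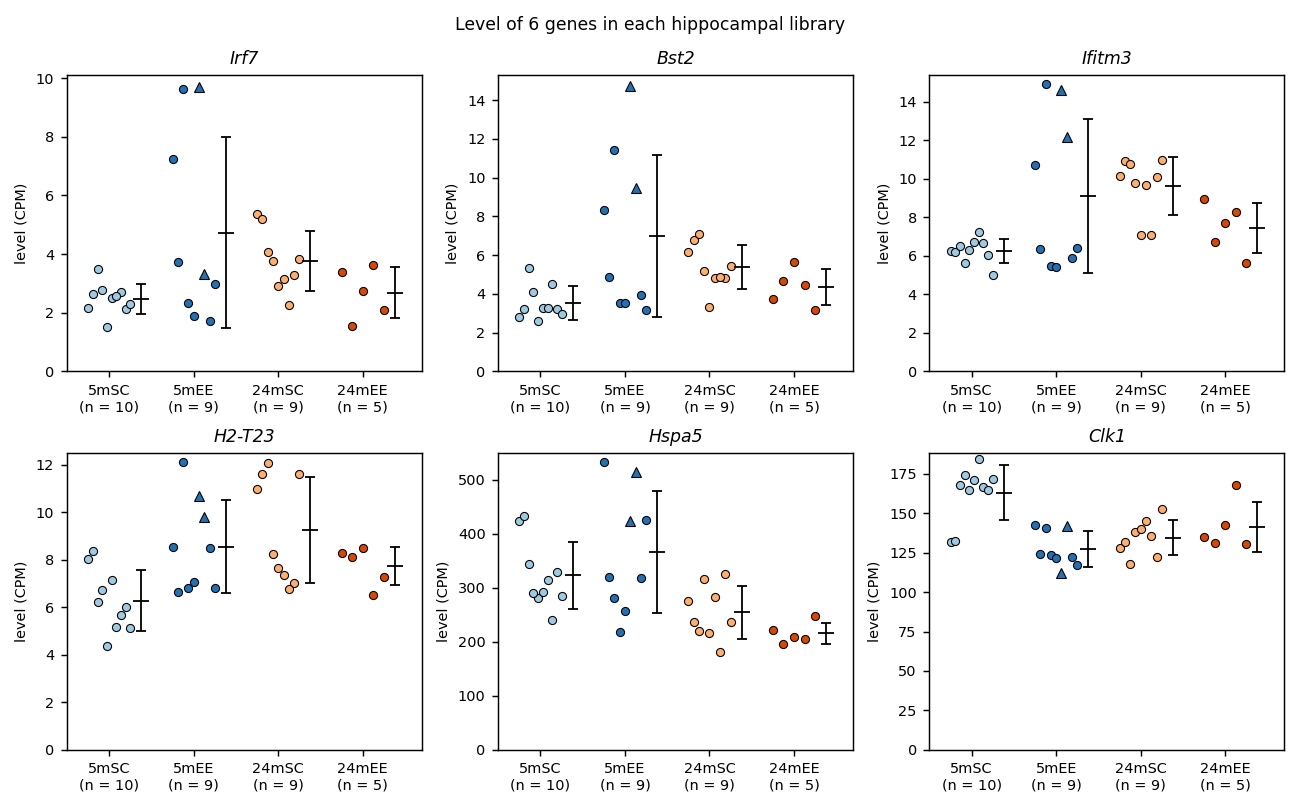
CPM of Irf7, Bst2, Ifitm3, H2-T23, Hspa5 and Clk1 in each library, with the mean ± SD beside the points of each group and triangles for 5mEE mice 5_81 and 5_85. The 4 highest 5mEE points of Bst2 run from 8.31 to 14.7, above all 5mSC points, and the 5mEE points of Clk1 run from 112.1 to 143.

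Chaperones and heat shock proteins were a further group with this orientation. All 29 genes of the list were tested, and 22 (75.9%) were lower under EE at 24 months and higher at 5 months, against 22.5% of all genes. The median EE effect was −0.11 at 24 months, with 28 of 29 members below 0, and 0.11 at 5 months, with 23 above 0. The median interaction was −0.21, and 6 members had an interaction at unadjusted p below 0.05, all below 0, against 2.27% of all genes. These 6 were Pdia3, Hsp90b1, Dnajb11, Calr, Sdf2l1 and Pdia6, which all fold proteins in the endoplasmic reticulum. The interaction lay below 0 for 27 of the 29 members, cytosolic heat shock genes among them, and the exceptions were Hspa1a (0.14) and Dnajb1 (0.06).

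The endoplasmic reticulum stress element (ERSE), bound by ATF6 and XBP1 together with NF-Y, was searched as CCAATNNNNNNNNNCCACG on both strands of the same windows. It was present in 7 of 24 chaperone genes with a promoter searched (29.2%), in 0.137% of all genes and in 0.119% of all promoters. It was in 0 of the 20 interferon response and 13 MHC class I genes. Conversely, the ISRE letters were in 0 of the 24 chaperone genes. The promoters of Hspa5 (chr2:34771890-34772089, plus strand) and Pdia6 (chr12:17266389-17266588, plus strand) show the element in capitals, to set beside the interferon genes.
Hspa5: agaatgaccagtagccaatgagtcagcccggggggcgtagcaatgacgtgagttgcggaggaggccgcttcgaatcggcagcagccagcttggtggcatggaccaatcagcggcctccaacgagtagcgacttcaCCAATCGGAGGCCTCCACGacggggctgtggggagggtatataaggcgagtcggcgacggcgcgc
Pdia6: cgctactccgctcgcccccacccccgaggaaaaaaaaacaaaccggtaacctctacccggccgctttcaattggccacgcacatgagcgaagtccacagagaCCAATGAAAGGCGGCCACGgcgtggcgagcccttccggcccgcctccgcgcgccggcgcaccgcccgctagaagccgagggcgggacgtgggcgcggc

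Pdia3, a disulfide isomerase that also serves in the loading of class I molecules, had 191 to 277 CPM in 5mSC with a median of 233, and 199 to 326 in 5mEE with a median of 247. In 24mSC it had 179 to 245 CPM with a median of 211, against 206, 187, 205, 181 and 183 in 24mEE. All 5 old enriched mice were below the control median and none was outside the control range, while 3 young enriched mice exceeded every young control. The EE effect was 0.16 ± 0.0766 at 5 months and −0.15 ± 0.0938 at 24 months, with an interaction of −0.31 ± 0.121 (edgeR, unadjusted p = 0.014, adjusted p = 1).

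Hspa5 encodes BiP, the main chaperone of the endoplasmic reticulum and sensor of the unfolded protein response (chr2:34771970-34777547). It had 240 to 432 CPM in 5mSC, 218 to 532 in 5mEE and 180 to 326 in 24mSC, and 221, 208, 247, 196 and 206 in 24mEE. The groups overlapped at both ages, with mice 5_79 and 5_85 above all young controls. Its interaction of −0.41 ± 0.216 had an unadjusted p of 0.064 in edgeR, and that of Hsp90b1, the endoplasmic reticulum form of HSP90, was −0.40 ± 0.157 with an unadjusted p of 0.016. The level of the chaperones and heat shock proteins list was 6.10 ± 0.13 in 5mSC, 6.18 ± 0.25 in 5mEE, 5.91 ± 0.13 in 24mSC and 5.79 ± 0.06 in 24mEE, where the mice had 5.81, 5.78, 5.88, 5.72 and 5.74.

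The young mice with high chaperones were only in part those with high interferon genes. Mice 5_79, 5_84 and 5_85 had 24 (82.8%), 17 (58.6%) and 19 (65.5%) of the 29 chaperone genes above every 5mSC library. Over all genes these shares were 12.2%, 6.86% and 10.6%. Mouse 5_84 had 0 of the 25 interferon genes there. Mouse 5_87, with all 25, had 2 chaperone genes (6.9%), near its share of 9.43% over all genes. Mouse 5_79 had most members of both lists above the controls. Without mice 5_81 and 5_85 the median EE effect of the chaperones at 5 months was 0.05, the median interaction −0.18 and the number of opposite signs 22, but only 1 of the 29 was then at unadjusted p below 0.05 in the interaction. With the 24-month controls numbered 24_1070 and above, the median at 24 months was −0.01, with 17 members of opposite sign. The chaperone pattern at 24 months thus changed when only mice 24_1073, 24_1075 and 24_1077 of the 9 standard-housed mice served as controls.

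Complement and reactive astrocyte genes had the same orientation, with smaller medians than the interferon response and MHC class I. Of 15 complement genes tested from a list of 16, 11 (73.3%) had the opposite signs. Their medians were −0.04 at 24 months and 0.14 at 5 months, and the median interaction was −0.23. Only 2 had an interaction at unadjusted p below 0.05: C5ar1, a receptor of the C5a fragment (−0.62 ± 0.261), and Cd59a, which blocks the membrane attack complex (−0.87 ± 0.414). Cd59a reached 11.3 CPM in mouse 5_81 and 7.67 in mouse 5_85, against at most 4.08 in all 5mSC mice, and without both its interaction was −0.23. The list without these mice had a median interaction of −0.11, 6 members of opposite sign and 0 at unadjusted p below 0.05. With controls numbered 24_1070 and above, the complement median at 24 months was 0.08, so the sign at that age was not stable.

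Of 25 reactive astrocyte genes 17 (68%) had the opposite signs, with medians of −0.09 and 0.10, and without mice 5_81 and 5_85 it was 11, with medians of −0.10 and 0.03. With controls numbered 24_1070 and above the reactive astrocytes median at 24 months was 0.06, the median interaction −0.02 and the number of opposite signs 8 of 24, so the sign at 24 months depended on the controls. Bcl3, a nuclear partner of NF-κB, had −0.62 ± 0.249 at 24 months and 0.44 ± 0.230 at 5 months, with an interaction of −1.06 ± 0.339 (edgeR, unadjusted p = 0.0034, adjusted p = 1). The 24mEE mice had 0.666, 0.760, 0.754, 0.646 and 0.453 CPM of Bcl3, and the 24mSC mice 0.701 to 1.34. All 5 lay under the control median of 0.970, 3 of them under every control. Lcn2, a secreted iron-binding acute phase protein, had an interaction of −3.02 ± 1.02, with 3.68 CPM in mouse 5_85 and 2.87 in mouse 5_80. Cxcl10, an interferon-induced chemokine, had −2.47 ± 0.915, with 4.10 CPM in mouse 5_87. Gfap, the filament protein of astrocytes, had an interaction of −0.05. General microglia markers had medians of 0.05 at 24 months and 0.08 at 5 months, and resting astrocyte markers 0.05 and 0.09, so that neither list had opposite signs.

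Markers of other tissue also differed with housing, at 5 months and, as given further below, at 24 months. The 14 choroid plexus genes had a median EE effect of 2.26 at 5 months, all 14 at unadjusted p below 0.05, and 0.01 at 24 months. Their list level was 5.85 in mouse 5_81 and 5.02 in mouse 5_85, against 0.85 to 2.26 in 5mSC and at most 2.26 in any other library. Ttr, which encodes the thyroid hormone carrier transthyretin and is the most abundant of them, had 5937 and 3394 CPM in these mice and at most 380 elsewhere. Summed over the list, 5mEE libraries ran from 69.5 to 6590 CPM, 5mSC from 110 to 450, 24mSC from 67.0 to 343 and 24mEE from 79 to 318. Without mice 5_81 and 5_85 the median EE effect of the list at 5 months was −0.31 and its median interaction 0.13. The interferon level was also high in mice 5_79 and 5_87, whose choroid plexus levels lay within the range of the standard-housed mice of both ages.

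**Figure D5:**
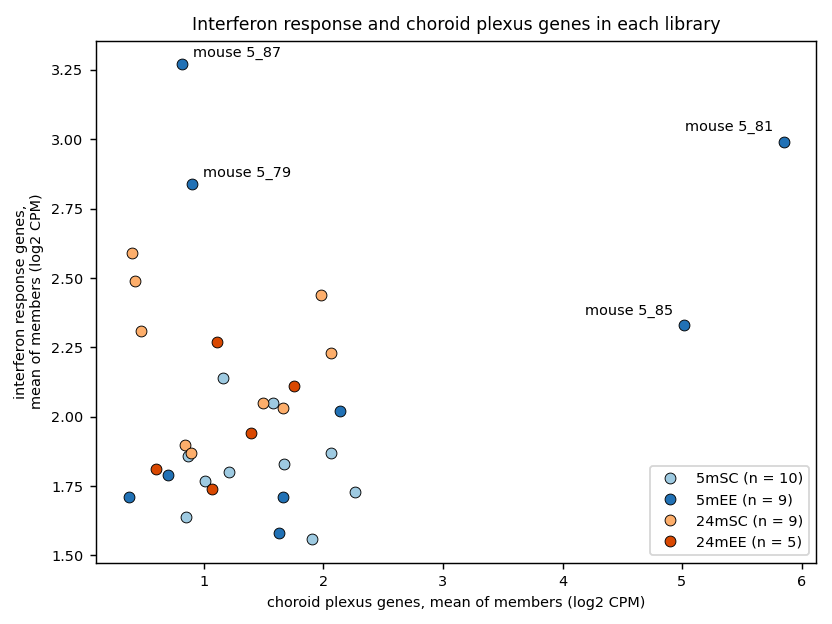
Mean log2 CPM of the interferon response genes against that of the choroid plexus genes, 1 point per library. Mice 5_81 and 5_85 lie at 5.85 and 5.02 on the choroid plexus axis, and mice 5_79 and 5_87 have interferon levels of 2.84 and 3.27 without high choroid plexus genes.

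Markers of meninges and fibroblasts had medians of −0.11 at 24 months and 0.21 at 5 months, with 10 of 14 (71.4%) of opposite sign. Their level was highest in mouse 5_85 (4.55), and without this mouse the median at 5 months was −0.03. Markers of striatum and septum, regions next to the hippocampus, had −0.03 and 0.15, with 7 of 10 tested members (70%) of opposite sign from a list of 12. Lymphocyte markers passed the filter for 3 of 16 genes only. Summed, those 3 ran from 12.7 to 41.1 CPM in 5mEE and from 12.5 to 20.9 in 5mSC. At 24 months, markers of cortex and subiculum had a median of −0.22, with 12 of 13 tested members below 0. Their level was 4.63 ± 0.23 in 24mSC and 4.39 ± 0.12 in 24mEE, and their median at 5 months was −0.05. Red blood cell markers had −0.33 at 24 months and −0.31 at 5 months, with all 5 tested members below 0 at both ages. Levels of CA1 markers in the 4 groups were 5.84 to 5.94 on average, and those of CA3 markers 5.16 to 5.28. What part choroid plexus, meninges, cortex, blood or lymphocytes had in the interferon and MHC class I differences was not tested beyond leaving out mice 5_81 and 5_85.

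Clk1, a kinase that phosphorylates splicing factors (chr1:58410189-58424066), had the smallest p of all genes. Its level was 132 to 185 CPM in 5mSC with a median of 167 and 112.1 to 143 in 5mEE with a median of 124, against 118 to 152 in 24mSC and 135, 143, 131, 131 and 168 in 24mEE. All 9 young enriched mice were below the 5mSC median and 6 were below every 5mSC mouse, and the old groups overlapped. Clk1 fell at 5 months by 0.35 ± 0.0632 on the log2 scale (edgeR, adjusted p = 0.038), and the value at 24 months was 0.07 ± 0.0764. The interaction was 0.43 ± 0.0988 (edgeR, unadjusted p = 0.00012, adjusted p = 0.89).

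Of the 10 genes with the smallest p and an interaction above 0, all were higher under EE at 24 months and lower at 5 months. The choice by p largely sets this. Of the 344 genes with an interaction above 0 at unadjusted p below 0.05, 328 had the same orientation. Besides Clk1 they included Samd1, a reader of unmethylated CpG islands (0.17 at 24 months, −0.18 at 5 months), Jmjd6 (0.10, −0.22), Inhbb, the activin beta B subunit (0.14, −0.47), Cpeb1, a regulator of mRNA polyadenylation (0.09, −0.20), and Gm49322 (0.06, −0.46). Arhgap17, a GTPase activating protein, had 31.4, 32.5, 31.6, 33.5 and 32.0 CPM in 24mEE, above all 24mSC mice (26.0 to 30.9). Its EE effect was 0.18 ± 0.052 at 24 months and −0.07 ± 0.0431 at 5 months, and it was not called. As Arhgap17 was picked by its p, this separation is no independent support. How many of the 17151 genes tested separated in the same way was not counted. The remaining 3 were A830036E02Rik (0.29, −0.28), Abcb4 (0.31, −0.06) and Trim71 (0.44, −0.17).

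The 10 genes with the smallest p below 0 held 4 interferon and MHC class I genes, namely Bst2, Ifitm3, Irf7 and H2-T23. The choice by p largely sets the signs of these 10 and how many of their mice stood beyond the controls. Of the 390 genes with an interaction below 0 at unadjusted p below 0.05, 362 were lower at 24 months and higher at 5 months. Adcyap1 encodes the neuropeptide PACAP. It had 2.62 to 6.61 CPM in 5mSC with a median of 4.52 and 4.21 to 7.96 in 5mEE with a median of 6.58. In 24mSC it had 4.53 to 6.38 CPM, and in 24mEE 2.91, 3.21, 5.17, 4.33 and 5.21. Young enriched mice were above the control median in 8 of 9 cases and old enriched mice below it in 5 of 5. The EE effects were 0.45 ± 0.131 and −0.38 ± 0.164, and the interaction was −0.84 ± 0.210 (edgeR, unadjusted p = 0.00034, adjusted p = 0.89).

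Plpp4, a lipid phosphatase, had a similar layout, with 2.63 to 5.24 CPM in 5mSC and 4.16 to 6.90 in 5mEE, and 3.40 to 5.86 in 24mSC against 2.36, 3.04, 4.31, 2.49 and 4.07 in 24mEE. Here 6 young enriched mice were above every control and 3 old enriched mice below every control. Its interaction was −0.85 ± 0.203 (edgeR, unadjusted p = 0.00017, adjusted p = 0.89). Lcmt2 had −0.15 at 24 months and 0.26 at 5 months, 9130023H24Rik −0.27 and 0.22, Vash2 −0.56 and 0.13, and Ecel1 −0.46 and 1.25, the latter with 16.6 CPM in mouse 5_81.

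The 5 genes called at 5 months were Clk1, Gm49322, Klf2, Frem3 and Fst, and their values at 24 months were not always of the other sign. Klf2, a transcription factor of endothelial and immune cells, fell by 0.87 ± 0.171 (edgeR, adjusted p = 0.045), with 2.94 to 5.72 CPM in 5mEE against 3.48 to 10.4 in 5mSC. Its value at 24 months was −0.11. Frem3, an extracellular matrix gene, fell by 1.21 ± 0.233 (edgeR, adjusted p = 0.043), with 6 of 9 mice below every control, and was at −0.20 at 24 months. Gm49322 fell by 0.46 ± 0.0862 (edgeR, adjusted p = 0.038), and 8 of 9 mice were below every control. Fst encodes follistatin, the antagonist of activins, and rose by 1.10 ± 0.204 (edgeR, adjusted p = 0.038), with 6 of 9 mice above every control. Its value at 24 months had the same sign, 0.57 ± 0.249.  With the 5-month libraries fitted alone 0 of the 5 were called, and with 1 library left out at a time the count ran from 0 to 20.

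In the other orientation, 7 of 12 dentate gyrus markers (58.3%) were higher under EE at 24 months and lower at 5 months, against 21.5% of all genes. Their medians were 0.17 and −0.01, and the median interaction was 0.19. Without mouse 24_1076 the dentate gyrus median at 24 months was 0.09 and the interaction 0.07, and with controls numbered 24_1070 and above they were 0.00 and −0.04. Tdo2, an enzyme of tryptophan breakdown found in granule cells, had 3.45, 5.20, 4.04, 6.81 and 7.02 CPM in 24mEE against 3.17 to 6.41 in 24mSC, and its EE effects were 0.29 ± 0.195 and −0.22 ± 0.160. Of 26 cytosolic ribosomal protein genes 11 (42.3%) had this orientation, with medians of 0.04 and −0.01.

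Genes induced by neuronal activity had medians below 0 at both ages. The 36 activity-induced genes tested had medians of −0.23 at 5 months, with 18 at unadjusted p below 0.05, and −0.06 at 24 months, and 4 and 2 members had opposite signs in the 2 orientations. With all 39 libraries, which add the 6 standard-housed mice with an OE name, the median at 24 months was −0.43, with 21 members at unadjusted p below 0.05, and the median interaction went from 0.14 to −0.16, so which age had the larger effect depended on these controls. Egr4, an immediate early transcription factor, had 10.3 to 19.8 CPM in 5mEE and 9.83 to 37.5 in 5mSC, and its EE effects were −0.58 ± 0.170 at 5 months and −0.04 ± 0.211 at 24 months. Per1, which is both a clock gene and induced by activity, had −0.41 ± 0.106 and −0.05 ± 0.129. Ciart, a repressor of the circadian clock, had −0.44 ± 0.122 and 0.10 ± 0.143, with 6 of 9 young enriched mice below every young control. The time of day at which tissue was taken is not in the labels.

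The hub genes that the study names from its own analysis are a choice made partly on these conditions and so are no independent evidence of a direction. Of 10 tested, 6 (60%) were lower at 24 months and higher at 5 months under EE, and 3 (30%) were the reverse. Grb10, an adaptor that restrains insulin signalling, had 25.0 to 35.5 CPM in 24mEE against 32.6 to 43.2 in 24mSC, with EE effects of −0.22 ± 0.111 and 0.12 ± 0.0902. Il4ra, the interleukin 4 receptor alpha chain, had −0.19 ± 0.15 and 0.25 ± 0.124. Cttnbp2, a cortactin-binding protein of dendritic spines, had 0.11 ± 0.0682 and −0.11 ± 0.0564, and Rras2 had 0.12 ± 0.0876 and −0.12 ± 0.0716. Adjusted p-values of the interaction were 1 for each of these 4 genes in edgeR.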

How the data were processed

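Hippocampal RNA was sequenced from 1 library per mouse. Per the submitters' processing notes, bcl2fastq 1.8.3, STAR 2.4.1d, featureCounts 1.4.6-p4 and GRCm38 were used. The authors deposited whole-number counts of reads per gene, without normalization, and these were used as deposited. Deposited RPKM values were not used here. Samples were grouped by the age and treatment in the labels. Counts of 33 libraries were fitted in R 4.3.3 with edgeR 4.0.16 (limma 3.58.1): TMM, filterByExpr by group (17151 of 47729 genes kept), a model of 4 group means, quasi-likelihood tests of both EE effects and their difference, and Benjamini-Hochberg adjustment with a threshold of 0.05. CPM uses TMM library sizes, and list levels use log2 CPM with a prior count of 2. Standard errors come from the fit. Counts of every pair of replicates differed by more than sampling noise, with a chi-square of at least 2.4 per degree of freedom. The labels do not say that mice came from separate litters or cages, and the paper states that mice were housed in groups. The tests treat each mouse as an independent replicate of its housing, which mice sharing a cage are not. The p-values set the housing difference against the spread between these samples only.

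The members and lists were chosen with earlier results of these data known. Named were the 10 genes of smallest interaction p in each direction with a mean of at least 1 CPM, from each list the 4 members of smallest p, and the study's hub genes. Klf2, Frem3 and Fst (called at 5 months) and Isg15, Oasl2, Ifit1, Ifit3, Ifit3b, Stat2, Ddx58, H2-Q6, H2-D1, H2-K1, Tap1, Sdf2l1, Pdia6, Hspa5, Hspa1a, Dnajb1 and Gfap were named after their values were seen. Alternatives were DESeq2 1.42.0, RLE size factors, other filters, svaseq (sva 3.50.0), other sets of libraries and leaving out each library. One interferon response gene, counted in the list values, is not reported here by itself. Scripts were tested on simulated data. Gene coordinates are GENCODE M21 on GRCm38, and promoters are RefSeq on GRCm38.p6.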

Additional observations from a re-analysis of the deposited data

Results flagged for a closer look

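Over 10 lists and 52 genes, 248 groups of libraries were examined for a library far from the others, judged by its gap to the nearest library relative to the range of the group (Dixon's 95% limit). Chance alone marks about 1 in 20 groups, and 10 of 248 were marked.

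In 5mSC, Gm49322 had 5.15 CPM in mouse 5_112 with the next at 4.26, H2-T22 had 13.5 CPM in mouse 5_107 with the next at 10.7, and C4b, a complement component, had 45.6 CPM in mouse 5_109 with the next at 34.6. In 5mEE, 9130023H24Rik was lowest in mouse 5_86 with 1.79 CPM (next 2.53), Ecel1 was highest in mouse 5_81 with 16.6 CPM (next 7.58), and Diexf was highest in mouse 5_84 with 24.1 CPM (next 21.8). Cxcl10 had a library apart in 3 groups: mouse 24_1077 of 24mSC with 2.36 CPM (next 0.907), mouse 5_112 of 5mSC with 0.639 (next 0.363) and mouse 5_87 of 5mEE with 4.1 (next 1.61). Klf2 had 5.5 CPM in mouse 24_1076 of 24mEE (next 4.24).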

How the results depend on the processing

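The interaction and the EE effect at 24 months gave 0 called genes under every alternative run: RLE size factors, no filter, at least 1 CPM in 5 libraries, all 39 libraries, 24-month mice numbered 24_1070 and above, 2 surrogate variables, DESeq2, each of 33 libraries left out, and the 2 sets of 5mEE mice left out after the data were seen. The 5 genes called at 5 months became 0 with 24-month mice numbered 24_1070 and above, 0 with the 5-month libraries fitted alone, 60 with 2 surrogate variables, 33 with DESeq2 and 1 without mice 5_79, 5_81 and 5_87. With 1 library left out they ranged from 0 to 20, with 0 without 5mEE mouse 5_83 or 5mSC mouse 5_111, 5_113 or 5_115, and 20 without 5mSC mouse 5_107. The cause was not tested. Over 43 refits Clk1 kept its call at 5 months in 36, Fst in 31, Gm49322 in 26, Frem3 in 20 and Klf2 in 14. Interactions of 23 genes kept their sign in all 966 refits. These genes were picked from the same data, by a small interaction p or a call at 5 months, so this is no independent support. As 0 interactions were called in every run, their side of the threshold could not change. Medians of 10 lists moved by less than 1 pooled SD of the list level between libraries in 1268 of 1280 refits, but changed sign in 34, of which 18 were in lists other than choroid plexus and meninges. Interaction medians changed sign for meninges and fibroblasts (0.03 with 2 surrogate variables, 0.05 without mice 5_81 and 5_85), choroid plexus (0.23 and 0.13), activity-induced genes (−0.16 with all 39 libraries) and dentate gyrus (−0.04 with mice numbered 24_1070 and above). No paired analysis was possible because mouse numbers are not shared between groups.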
